A study of Mus musculus with 20 samples.

Results

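The methionine, betaine and homocysteine cycle of the mouse liver was described here through 10 genes: Mat1a, Mat2a, Gnmt, Ahcy, Bhmt, Bhmt2, Chdh, Dmgdh, Cbs and Cth. They were found by their symbols among the 38924 genes of an RNA-seq table of liver, and all 10 passed the filter on low values with which 14524 genes were tested. Liver RNA came from 20 male mice, 5 in each of 4 groups, taken after 12 weeks on a diet. Control diet WT mice (NDWT) and control diet TSP-1 null mice (NDKO) ate the control diet. CDAHFD WT mice (HFWT) and CDAHFD TSP-1 null mice (HFKO) ate CDAHFD, an L-amino acid-defined diet that is high in fat, lacks choline and is low in methionine. All mice had the C57BL/6J background, were bought at 5 weeks of age and acclimated for 1 week. TSP-1 null mice were bought as knockouts of Thbs1, which encodes thrombospondin 1, and the knockout is not limited to a cell type. The design asks how the diet changed these genes in each genotype, and how the genotypes differed on each diet. Values are FPKM, fragments per kilobase of gene scaled to the total of fragments assigned to genes in a library, and groups are given as mean ± SD over 5 mice.

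The cycle turns dietary methionine into S-adenosylmethionine (SAM), the donor of most methyl groups in the cell, through the methionine adenosyltransferases Mat1a, the form of the adult liver, and Mat2a, the form of most other tissues. Glycine N-methyltransferase, Gnmt, uses up surplus SAM, and Ahcy splits the product S-adenosylhomocysteine into homocysteine and adenosine. Homocysteine is either methylated back to methionine or passed through Cbs and Cth to cysteine. Liver has its own methylation route, in which Chdh starts the oxidation of choline to betaine, Bhmt transfers a methyl group of betaine to homocysteine, and Dmgdh oxidizes the dimethylglycine that is left. Bhmt2, a near relative of Bhmt, uses S-methylmethionine.

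Thbs1 was read first, as the targeted gene. The NDWT libraries held 0.17, 0.33, 0.27, 0.06 and 0.17 FPKM and the libraries labelled NDKO 1.00, 1.5, 0.99, 1.90 and 1.13 FPKM, so Thbs1 was higher in every control diet library labelled TSP-1 null. The HFWT libraries held 5.77, 6.10, 3.46, 3.91 and 3.86 FPKM and those labelled HFKO 3.30, 3.32, 3.05, 3.14 and 4.4 FPKM, which overlap. Gene-level values do not show which exons were read, and every direction between genotypes below rests on the labels. A pair of mitochondrial tRNA genes, chosen after their values were seen, separated the labels: mt-Tg and mt-Tr had 1 to 22 fragments in each WT library and 0 in all 10 libraries labelled TSP-1 null. Libraries held 15641545 to 23276322 fragments. Of 11 hepatocyte markers found, 3 were lower on CDAHFD in WT mice and 2 in TSP-1 null ones, and none was higher. Their summed FPKM ran from 56500 to 60500 in NDWT, 61400 to 65800 in NDKO, 40100 to 54700 in HFWT and 49400 to 63500 in HFKO. All 8 stellate cell and myofibroblast markers were higher on CDAHFD in both genotypes, with sums of 11.6 to 16.8 in NDWT against 119 to 256 in HFWT and of 13.7 to 15.4 in NDKO against 105 to 200 in HFKO. Higher on CDAHFD, in WT and TSP-1 null mice, were also 5 and 5 of 8 macrophage markers (with 2 and 2 lower), 7 and 7 of 8 T and B cell markers, 5 and 5 of 5 tested cholangiocyte markers, 2 and 3 of 7 endothelial markers and 2 and 2 of 2 tested neutrophil markers, while 1 and 2 of 5 erythroid markers were lower. Of all tested genes 44.1% were called higher and 4.62% lower in WT mice, and 41.9% and 4% in TSP-1 null mice. The median log2FC of the endothelial markers, 0.06 and 0.31, lay under that of all tested genes, 0.53 and 0.50. The part of these markers in the results was not tested. The summed neutrophil markers ran from 0.716 to 4.11 FPKM in the control diet libraries and from 10.5 to 30.7 FPKM in the CDAHFD libraries, mostly from S100a8 and S100a9. Ly6g, Mpo and Elane were at most 0.602, 0.187 and 0.804 FPKM in any library. Mean Elane was 0.348 and 0.379 FPKM in NDWT and HFWT, and 0.158 and 0.164 FPKM in NDKO and HFKO. Between genotypes no hepatocyte marker was called on either diet, while 1 stellate cell marker was lower and 1 macrophage marker higher in control diet libraries labelled TSP-1 null. Of all tested genes 3.03% and 1.74% were. Under the fold threshold of 0.58, Hnf4a (log2FC 0.55, false discovery rate 0.00337) and Ahsg (0.36, 0.0266) were higher there, as was Ahsg on CDAHFD (0.44, 0.0438). None of the 11 was lower at a false discovery rate under 0.05. Summed hepatocyte markers were higher in every NDKO than in every NDWT library and overlapped between HFWT and HFKO.

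3 of the genes lie side by side, and their promoter windows carry that arrangement. On GRCm38, Bhmt (ENSMUSG00000074768.5, chr13:93616891-93637961, minus strand), Bhmt2 (ENSMUSG00000042118.7, chr13:93655720-93674302, minus strand) and Dmgdh (ENSMUSG00000042102.6, chr13:93674433-93752831, plus strand) span 136 kb. Bhmt2 and Dmgdh point away from each other with 130 bases between the genes and 134 bases between the start sites, and Bhmt begins 17758 bases from the end of Bhmt2. The windows below run from 250 bases before to 50 bases after the RefSeq start site on GRCm38.p6, 5′ to 3′ on the strand of the gene. 8 of the 10 genes matched a window, without Mat1a and Cth. The windows of Bhmt2 (chr13:93674253-93674552) and Dmgdh (chr13:93674186-93674485) are shown because they share 233 bases, in capitals, which read as reverse complements of each other:
Bhmt2: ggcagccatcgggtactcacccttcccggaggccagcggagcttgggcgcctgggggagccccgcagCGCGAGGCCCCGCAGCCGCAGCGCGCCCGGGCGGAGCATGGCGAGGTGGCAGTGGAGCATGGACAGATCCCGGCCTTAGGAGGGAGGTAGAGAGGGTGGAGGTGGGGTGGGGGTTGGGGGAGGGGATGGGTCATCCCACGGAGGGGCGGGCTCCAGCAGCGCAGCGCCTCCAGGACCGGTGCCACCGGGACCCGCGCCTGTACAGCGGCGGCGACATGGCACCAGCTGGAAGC
Dmgdh: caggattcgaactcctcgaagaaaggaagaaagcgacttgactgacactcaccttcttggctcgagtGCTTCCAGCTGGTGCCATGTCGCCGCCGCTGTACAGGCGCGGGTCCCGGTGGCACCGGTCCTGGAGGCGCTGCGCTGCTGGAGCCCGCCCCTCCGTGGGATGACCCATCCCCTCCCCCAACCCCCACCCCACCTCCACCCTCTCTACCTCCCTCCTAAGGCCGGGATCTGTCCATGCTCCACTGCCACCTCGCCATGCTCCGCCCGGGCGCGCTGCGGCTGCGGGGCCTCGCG

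The windows of Bhmt (chr13:93637709-93638008, minus strand), the third gene of this cluster, of Gnmt (chr17:46729116-46729415, minus strand) and of Mat2a (chr6:72439507-72439806, minus strand) are shown beside them. They belong to a betaine, a SAM-using and a SAM-making enzyme. Capitals mark matches on either strand to TATAAA (the TATA box), to GGGCGG (the GC box), to CCAAT (the CCAAT box), to AGGTCA (a nuclear receptor motif), to TGATGNAA (the amino acid response element core) or to CACGTG (the E box):
Bhmt: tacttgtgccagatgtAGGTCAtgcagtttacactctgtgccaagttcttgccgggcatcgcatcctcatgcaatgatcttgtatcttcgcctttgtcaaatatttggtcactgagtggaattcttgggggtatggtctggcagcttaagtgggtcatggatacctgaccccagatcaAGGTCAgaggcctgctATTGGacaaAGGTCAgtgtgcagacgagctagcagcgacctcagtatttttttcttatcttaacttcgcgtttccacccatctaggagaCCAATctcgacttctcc
Gnmt: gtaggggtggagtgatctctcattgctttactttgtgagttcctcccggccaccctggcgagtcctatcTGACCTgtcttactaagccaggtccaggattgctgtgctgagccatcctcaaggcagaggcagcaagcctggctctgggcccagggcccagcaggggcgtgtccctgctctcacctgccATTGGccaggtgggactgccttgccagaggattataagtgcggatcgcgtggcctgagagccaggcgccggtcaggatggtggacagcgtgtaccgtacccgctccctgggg
Mat2a: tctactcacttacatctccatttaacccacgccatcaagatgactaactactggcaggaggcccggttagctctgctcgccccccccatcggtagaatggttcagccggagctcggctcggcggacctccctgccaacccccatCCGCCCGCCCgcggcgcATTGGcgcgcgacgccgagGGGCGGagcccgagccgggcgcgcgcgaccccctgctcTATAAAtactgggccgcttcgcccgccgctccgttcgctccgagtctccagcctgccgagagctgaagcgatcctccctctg

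AGGTCA, a core motif of many nuclear receptors, occurs 3 times in the Bhmt window, and a match is present in 16.3% of all 32851 windows. CCAAT has 2 matches there, 1 in the Gnmt window and 1 in the Mat2a window, against 37.4% of all windows. The Mat2a window alone among these 5 holds TATAAA, 32 bases before the start (13.6% of all windows), together with 3 matches to GGGCGG, of which 2 overlap each other (35.7% of all windows). The shared Bhmt2 and Dmgdh stretch holds 2 matches to GGGCGG. TGATGNAA, the core of the amino acid response element, matched in none of the 10 member windows and in 3.97% of all windows, and CACGTG in the Cbs window only (7.15% of all). Guanine and cytosine made up 73.7% of the Bhmt2 window, 68.0% of that of Dmgdh, 67.0% of that of Mat2a, 62.0% of that of Gnmt and 48.0% of that of Bhmt, where the median window had 52.7%. These matches describe the letters in a window and not binding sites.

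Together the 10 genes took 1.24 to 1.67% of all fragments in NDWT, 1.98 to 2.81% in NDKO, 0.743 to 0.908% in HFWT and 0.744 to 0.999% in HFKO. Every NDKO library lay above all others, and every CDAHFD library below all control diet libraries. By level per length, Mat1a led in each group, followed by Gnmt. In NDWT the order of mean FPKM was Mat1a, Gnmt, Ahcy, Bhmt, Dmgdh, Cth, Cbs, Bhmt2, Chdh and Mat2a. Neighbours in that order whose ranges overlapped were Gnmt with Ahcy, Ahcy with Bhmt, Dmgdh with Cth and Cth with Cbs. On CDAHFD some ranges drew together and others apart. Mat1a and Gnmt overlapped in HFWT but not in HFKO. Mat2a and Chdh, apart on the control diet in both genotypes, overlapped in both CDAHFD groups. Gnmt and Ahcy, which overlapped on the control diet in both genotypes, overlapped in neither CDAHFD group. The widest spreads between mice of a group were those of Bhmt in HFKO, where the highest mouse held 2.77 times the lowest, and of Cth in NDKO, at 2.32 times. For Ahcy this ratio was 1.20 to 1.34 over the 4 groups.

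**Figure D1:**
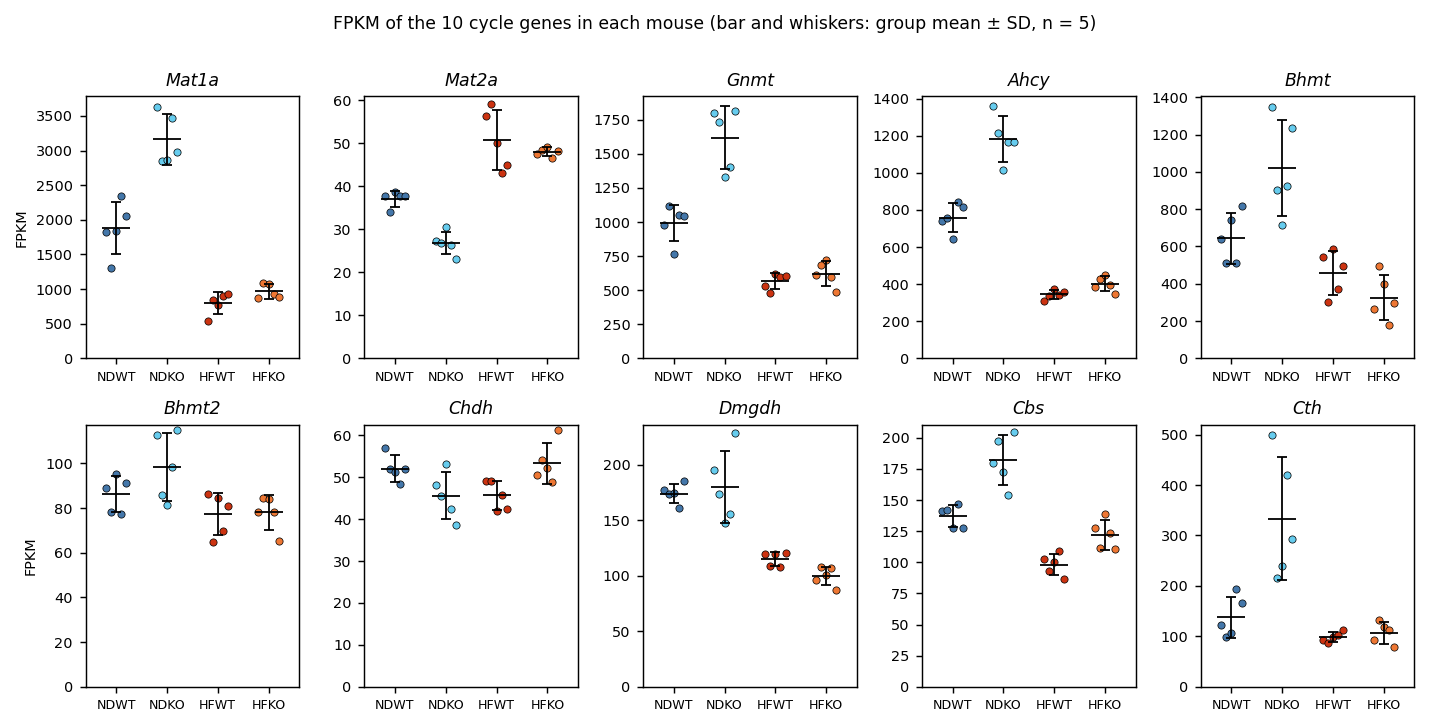
FPKM of each of the 10 genes (y axis, from 0) in each mouse of the 4 groups (x axis), with 1 point per mouse and bar and whiskers for group mean ± SD over 5 mice. Mat1a, Gnmt and Ahcy were highest in all NDKO mice and lowest in the CDAHFD mice, and Mat2a was lowest in all NDKO mice.

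Transcripts of Mat1a, Gnmt, Ahcy and Dmgdh were lower on CDAHFD in both genotypes, although those of Gnmt and Dmgdh were not called in WT mice after quantile normalization. In WT mice 4 of the 10 genes, Mat1a, Ahcy, Gnmt and Dmgdh, were called lower and none was called higher. DEGs were called at a false discovery rate (FDR) under 0.05 and an absolute log2FC above 0.58, by limma over all tested genes. Of all tested genes 48.8% were called in this comparison, 44.1% higher and 4.62% lower. In TSP-1 null mice 6 were called lower (Mat1a, Bhmt, Cth, Ahcy, Gnmt and Dmgdh) and 1, Mat2a, higher. There 45.9% of all tested genes were called, 41.9% higher and 4% lower. The groups did not overlap for 6 genes in WT mice, 5 of them lower (56.2% of all tested genes, 50.5% higher and 5.7% lower), and for 8 genes in TSP-1 null mice, 7 of them lower (57.8%, 52.7% higher and 5.03% lower). FPKM are shares of a library, and the median of all tested genes itself lay at a log2FC of 0.53 in WT mice and 0.50 in TSP-1 null ones. The median of the 10 genes was −0.49 and −1.11. All 10 genes in WT mice and 9 in TSP-1 null mice, the exception being Mat2a, lay below the median of all genes. The 11 hepatocyte markers all lay below it as well, with a median log2FC of −0.35 in WT mice and −0.42 in TSP-1 null mice. In whole liver, fewer hepatocytes and less RNA per hepatocyte cannot be told apart, and hepatocyte marker sums were lower in every HFWT than in every NDWT mouse and overlapped between NDKO and HFKO. Alb made up the largest part of these sums, at 25100 ± 2900 FPKM in NDWT and 23000 ± 3560 in HFWT. It measured 27900 ± 3400 FPKM in NDKO and 29700 ± 4210 in HFKO.

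**Figure D2:**
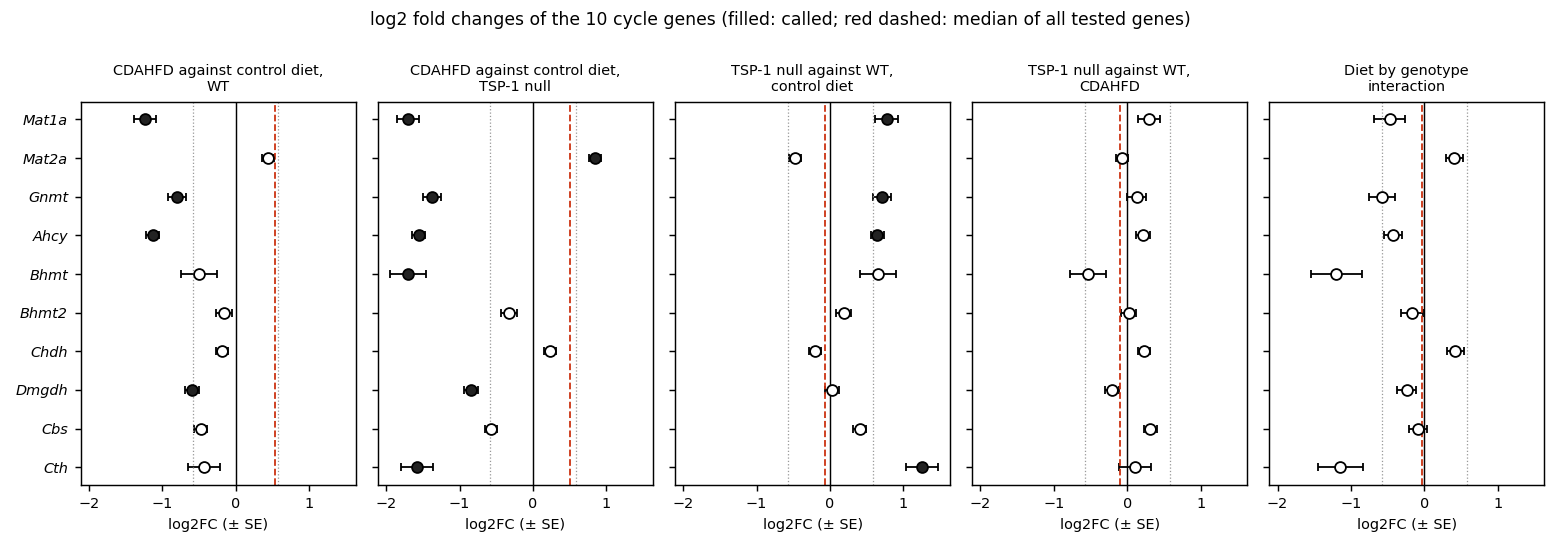
log2FC of the 10 genes with its SE (x axis) in the 4 comparisons and the interaction, from limma on log2(FPKM + 0.1) over 20 libraries. Filled points passed FDR and fold thresholds, dotted lines mark an absolute log2FC of 0.58 and the dashed line the median of all 14524 tested genes. In the WT and TSP-1 null diet panels 9 and 8 of the 10 points lie left of 0 while the median of all genes lies right of it.

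Mat1a (ENSMUSG00000037798.6, chr14:41105381-41124412, plus strand) makes the SAM of the adult liver and was the most abundant of the 10 genes. It measured 1829, 1311, 1845, 2349 and 2049 FPKM in NDWT and 542, 846, 769, 904 and 931 FPKM in HFWT. In NDKO it measured 3627, 2855, 2865, 3464 and 2977 FPKM and in HFKO 874, 1092, 1068, 925 and 881 FPKM. All control diet mice lay above all CDAHFD mice, and all NDKO mice above all NDWT mice. Group means were 1880 ± 379, 3160 ± 362, 798 ± 156 and 968 ± 104 in NDWT, NDKO, HFWT and HFKO. Mat1a fell on CDAHFD by 1.23 on the log2 scale in WT mice (SE 0.15, FDR 5.05e-07), and by 1.70 in TSP-1 null mice (SE 0.15, FDR 7.58e-09). On the control diet it was 1.68 times higher in libraries labelled TSP-1 null (log2FC 0.77, FDR 0.00274).

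Mat2a (ENSMUSG00000053907.9, chr6:72432799-72439558, minus strand) encodes the methionine adenosyltransferase of tissues other than adult liver and ran the other way. It measured 37.7, 34.0, 38.6, 37.8 and 37.7 FPKM in NDWT and 56.2, 59.1, 50.1, 43.1 and 45.0 FPKM in HFWT. The NDKO mice had 27.2, 26.8, 30.4, 26.4 and 23.1 FPKM and the HFKO mice 47.4, 48.5, 49.2, 46.6 and 48.3 FPKM. Every CDAHFD mouse lay above every control diet mouse, and every NDKO mouse below every NDWT mouse. Mat2a rose in TSP-1 null mice (log2FC 0.84, SE 0.08, FDR 2.48e-08). In WT mice its log2FC of 0.44 (FDR 7.79e-05) stayed under the fold threshold and turned to −0.12 (FDR 0.169) with median of ratios scaling. Relative to the median of all genes it changed by −0.09 in WT mice and 0.35 in TSP-1 null ones. On the control diet its log2FC in libraries labelled TSP-1 null was −0.47 (FDR 0.0011), also under the fold threshold. Exons of the antisense gene Particl overlap 508 bases of Mat2a, and whether the authors counted by strand is not given in the sources used here.

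The ratio of Mat1a to Mat2a within a mouse is left as it is by any factor applied to a whole library. It was 48.6, 38.6, 47.8, 62.1 and 54.4 in NDWT, and 133, 106, 94.1, 131 and 129 in NDKO. In HFWT it was 9.64, 14.3, 15.3, 21 and 20.7, and in HFKO 18.5, 22.5, 21.7, 19.9 and 18.2. The control diet and CDAHFD groups did not overlap, NDKO lay above NDWT in every mouse, and only the CDAHFD groups overlapped. On CDAHFD the log2 ratio fell by 1.67 in WT and by 2.55 in TSP-1 null mice, and on the control diet it was 1.24 higher in libraries labelled TSP-1 null. In all 3 cases the two-sided exact permutation p was 0.00794, the smallest that 252 arrangements can give (adjusted p 0.0159 over 8 ratio tests). On CDAHFD the difference between labels was 0.37 (exact permutation p 0.119, adjusted p 0.119). Quantile normalization, which changes values within a library, brought the genes closer, with a log2FC on CDAHFD of −0.76 for Mat1a and 0.28 for Mat2a in WT mice (−1.23 and 0.44 as deposited) and of −1.15 and 0.63 in TSP-1 null mice (−1.70 and 0.84 as deposited). These comparisons share groups, so their values stand side by side and are not independent. The ratio is not corrected for the mix of cells in whole liver, and the part of that mix was not tested.

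**Figure D3:**
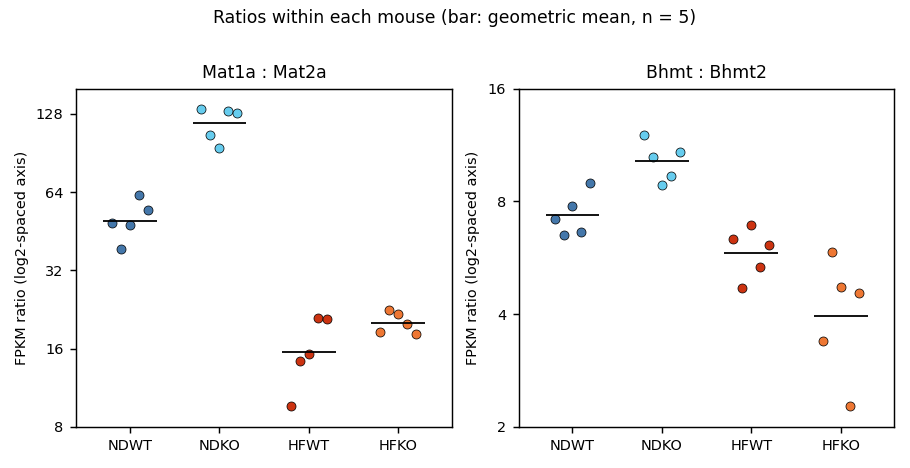
FPKM ratio of Mat1a to Mat2a (left) and of Bhmt to Bhmt2 (right) on log2-spaced y axes, with 1 point per mouse in the 4 groups and a bar at the geometric mean of 5 mice. The Mat1a to Mat2a ratio ran from 94.1 to 133 in NDKO and from 9.64 to 22.5 over both CDAHFD groups.

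Gnmt (ENSMUSG00000002769.8, chr17:46725664-46729168, minus strand), the main user of surplus SAM in liver, measured 981, 1114, 769, 1055 and 1047 FPKM in NDWT and 529.5, 479, 621, 598 and 602 FPKM in HFWT. It measured 1800.2, 1733, 1327, 1403 and 1818 FPKM in NDKO and 612, 687, 719, 596 and 489 FPKM in HFKO. No CDAHFD mouse reached a control diet mouse of its genotype. Gnmt fell by 0.81 on the log2 scale in WT mice (SE 0.12, FDR 8.90e-06) and by 1.38 in TSP-1 null mice (SE 0.12, FDR 9.19e-09). On the control diet it was 1.63 times higher in libraries labelled TSP-1 null (log2FC 0.70, FDR 0.00137), again without overlap.

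Ahcy (ENSMUSG00000027597.9, chr2:155059310-155074497, minus strand) removes S-adenosylhomocysteine, which inhibits methyltransferases, and lies on the chromosome of Thbs1, 36.9 Mb away. It measured 741, 755, 642, 840.2 and 815 FPKM in NDWT and 311, 338, 375, 341 and 359.8 FPKM in HFWT, and 1359, 1212, 1013, 1166 and 1164 FPKM in NDKO and 384, 429, 451, 397 and 348 FPKM in HFKO. The order from NDKO down to NDWT and then to the CDAHFD groups held for every mouse. Ahcy fell by 1.13 in WT mice (SE 0.09, FDR 1.41e-09) and by 1.56 in TSP-1 null mice (SE 0.09, FDR 2.74e-11) on the log2 scale, and was 1.56 times higher on the control diet in libraries labelled TSP-1 null (log2FC 0.64, FDR 2.06e-04). Reads of Ahcy can also match near copies, and whether such reads were dropped or assigned is not given in the sources used here. Of the stretches of 31 bases in Ahcy transcripts, 68.7% also occur in Gm4737 and 35.3% in Gm9826. Gm4737 measured 23.2 ± 1.29, 38.5 ± 6.88, 10.9 ± 1.44 and 12.8 ± 1.75 FPKM in NDWT, NDKO, HFWT and HFKO, a small fraction of the 758 ± 77.2, 1180 ± 124, 345 ± 24.0 and 402 ± 39.8 FPKM of Ahcy.

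Of the betaine genes Chdh, Bhmt, Bhmt2 and Dmgdh, Dmgdh was called on CDAHFD in both genotypes and Bhmt in TSP-1 null mice, all lower. The difference between these genes was not tested. Chdh (ENSMUSG00000015970.12, chr14:30009023-30040466, plus strand), choline dehydrogenase, measured 57.0, 51.9, 51.2, 48.3 and 52.1 FPKM in NDWT and 49.2, 49.2, 42.1, 45.7 and 42.3 FPKM in HFWT. It measured 48.2, 45.5, 53.2, 42.3 and 38.6 FPKM in NDKO and 50.4, 54.1, 52.2, 48.8 and 61.4 FPKM in HFKO. Groups overlapped in every comparison, and Chdh was not called in any from FPKM as deposited. Its log2FC on CDAHFD was −0.19 in WT mice (FDR 0.0433) and 0.23 in TSP-1 null mice (FDR 0.0162). Median of ratios scaling gave −0.75 in WT mice (FDR 3.29e-08), then called lower together with Bhmt, Bhmt2 and Dmgdh, and −0.30 in TSP-1 null mice (FDR 0.00137).

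Bhmt, which uses betaine to remethylate homocysteine, measured 640.0, 509, 741, 512 and 817 FPKM in NDWT and 545, 304, 585, 372 and 494 FPKM in HFWT, which overlap. It measured 1346, 901, 716, 922 and 1235 FPKM in NDKO and 265, 494, 397, 178 and 298 FPKM in HFKO, which do not. Bhmt fell by 1.70 on the log2 scale in TSP-1 null mice (SE 0.25, FDR 4.78e-06), a mean 3.14 times lower. In WT mice its log2FC was −0.50 (95% interval −1.01 to 0.01, FDR 0.0742), and without HFWT mouse 3 it was −0.60 (FDR 0.047), past both thresholds. In libraries labelled TSP-1 null it was 0.66 on the control diet (FDR 0.0847) and −0.54 on CDAHFD (FDR 0.268). Of its stretches of 31 bases, 27.1% also occur in Gm5096 and 15.6% in Bhmt-ps1. Gm5096 measured 27.9 ± 5.54, 51.7 ± 13, 22.9 ± 6.52 and 17.4 ± 5.50 FPKM in NDWT, NDKO, HFWT and HFKO, beside 644 ± 137, 1020 ± 259, 460 ± 118 and 326 ± 122 FPKM of Bhmt. Exons of the antisense gene Gm15622 overlap 187 bases of Bhmt, at up to 11.7 FPKM.

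Bhmt2, its neighbour, measured 89.1, 78.4, 95.3, 77.4 and 91.3 FPKM in NDWT, 113, 86.0, 81.2, 98.4 and 115 FPKM in NDKO, 86.2, 64.9, 84.5, 69.8 and 81.0 FPKM in HFWT and 78.2, 84.5, 84.1, 78.4 and 65.4 FPKM in HFKO. All 4 comparisons overlapped and none was called from FPKM as deposited, the log2FC on CDAHFD being −0.16 in WT (FDR 0.176) and −0.33 in TSP-1 null mice (FDR 0.0101). Median of ratios scaling called Bhmt2 lower in both (−0.72 and −0.86), and quantile normalization in neither. The ratio of Bhmt to Bhmt2 within a mouse ran from 6.49 to 8.95 in NDWT, 8.82 to 12.0 in NDKO, 4.69 to 6.92 in HFWT and 2.27 to 5.85 in HFKO. Of the 4 comparisons only that of NDKO with HFKO showed no overlap, and there the log2 ratio fell by 1.37 (exact permutation p 0.00794, adjusted p 0.0159). In WT mice it differed by −0.34 (exact permutation p 0.0317, adjusted p 0.0423). That call was lost without NDWT mouse 1, 3 or 5 or HFWT mouse 1, 2, 4 or 5, at differences of −0.37 to −0.26 and adjusted p of 0.0635 to 0.0726. Leaving out a mouse also leaves fewer arrangements, which raises the smallest p the test can give. A call can so be lost without a smaller difference, as it was without HFWT mouse 1 (−0.37). In libraries labelled TSP-1 null it was 0.48 higher on the control diet (exact permutation p 0.0159, adjusted p 0.0254), with adjusted p 0.0508 without NDWT mouse 1 or 3. On CDAHFD the difference was −0.56 (exact permutation p 0.0476, adjusted p 0.0544), with −0.64 (adjusted p 0.0423) without HFWT mouse 2 and −0.70 (adjusted p 0.0363) without HFKO mouse 2.

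Dmgdh, which oxidizes dimethylglycine in mitochondria, measured 177, 174, 175, 161 and 185 FPKM in NDWT and 119.6, 108, 119.8, 107 and 121 FPKM in HFWT. It measured 196, 174, 148, 156 and 229 FPKM in NDKO and 96.1, 108, 101, 107 and 87.4 FPKM in HFKO. Neither pair of groups overlapped. Dmgdh fell by 0.84 on the log2 scale in TSP-1 null mice (SE 0.09, FDR 2.00e-07). In WT mice it fell by 0.60 (SE 0.09, FDR 1.27e-05), just past the fold threshold, and the value was −0.58 without NDWT mouse 5 or HFWT mouse 2 and −0.57 without HFWT mouse 4, which ended the call. Its divergent neighbour Bhmt2, with 233 shared bases of promoter window, passed the thresholds in neither genotype from FPKM as deposited. With median of ratios scaling Bhmt2 was called lower in WT (−0.72, FDR 1.5e-05) and in TSP-1 null mice (−0.86, FDR 2.01e-06), as was Dmgdh. Between genotypes Dmgdh had a log2FC of 0.03 on the control diet (95% interval −0.17 to 0.23) and −0.21 on CDAHFD (95% interval −0.41 to −0.01, FDR 0.263).

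Of the transsulfuration genes, Cbs (ENSMUSG00000024039.8, chr17:31612623-31637199, minus strand), which joins homocysteine to serine, measured 141, 142, 127, 147 and 128 FPKM in NDWT and 103, 93.2, 100.3, 109 and 86.3 FPKM in HFWT. It measured 179.6, 197, 172, 154 and 205 FPKM in NDKO and 127, 111, 139, 123 and 111 FPKM in HFKO. None of the 4 comparisons overlapped, yet none was called from FPKM as deposited. The log2FC was −0.48 in WT (FDR 4.16e-05) and −0.57 in TSP-1 null mice (FDR 6.53e-06) on CDAHFD, and 0.40 on the control diet (FDR 0.00422) and 0.31 on CDAHFD (FDR 0.0745) in libraries labelled TSP-1 null. In TSP-1 null mice the diet change passed the fold threshold without NDKO mouse 3 (−0.59) or 4 (−0.62) or HFKO mouse 1 (−0.58) or 3 (−0.62).

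Cth (ENSMUSG00000028179.11, chr3:157894248-157925077, minus strand), which releases cysteine from cystathionine, had the widest spread on the control diet. It measured 123, 98.4, 107, 193 and 166 FPKM in NDWT and 499, 215, 240.2, 419 and 292 FPKM in NDKO. On CDAHFD it measured 92.6, 86.4, 99.4, 102 and 112 FPKM in HFWT, where the highest mouse held 1.30 times the lowest, against 1.69 times in HFKO, with 92.5, 133, 119, 113 and 78.7 FPKM in HFKO. All NDKO mice lay above all others, and the remaining groups overlapped. Cth was 2.42 times higher on the control diet in libraries labelled TSP-1 null (log2FC 1.25, SE 0.22, FDR 0.00126). In TSP-1 null mice it fell on CDAHFD by 1.58 on the log2 scale (SE 0.22, FDR 2.50e-06). In WT mice its log2FC was −0.44 (95% interval −0.89 to 0.02, FDR 0.0758).

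Between genotypes on the control diet, 4 of the 10 genes were higher in libraries labelled TSP-1 null, namely Cth, Mat1a, Gnmt and Ahcy, and none was lower, where 4.77% of all tested genes were called, 1.74% higher and 3.03% lower. The groups did not overlap for 6 genes, 5 of them higher (9.03% of all tested genes, 2.33% higher and 6.69% lower), with Cbs and Mat2a beside the 4 called. The median log2FC of the 10 genes was 0.52 and that of all tested genes −0.07. On CDAHFD 0 of the 10 genes were called by limma, against 0.496% of all tested genes (0.165% higher and 0.33% lower). In that fit 5 had an unadjusted p under 0.05, a count not set beside the share of all tested genes. With median of ratios scaling Cbs (0.42, FDR 0.0218) and Chdh (0.32, FDR 0.0354) passed the FDR but not the fold threshold. With quantile normalization only Cbs did (0.34, FDR 0.0397). From FPKM as deposited the CDAHFD groups overlapped for 9 of the 10 genes, the exception being Cbs (no overlap in 4.98% of all tested genes, 0.847% higher and 4.13% lower). The median of the 10 genes was 0.12 and that of all tested genes −0.10.

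Whether the diet effect differed between genotypes was read from the interaction, the diet log2FC in TSP-1 null mice less that in WT mice. None of the 10 genes was called by limma, against 0.647% of all tested genes (0.337% higher and 0.31% lower). In that fit 7 had an unadjusted p under 0.05, a count not set beside the share of all tested genes. The lowest FDRs were those of Cth (−1.14, FDR 0.0765), Chdh (0.42, FDR 0.0826), Mat2a (0.41, FDR 0.0917) and Bhmt (−1.20, FDR 0.0995). Cth passed the thresholds without NDWT mouse 4 (−1.28, FDR 0.0409) or NDKO mouse 2 (−1.28, FDR 0.0374). For Ahcy, Gnmt and Mat1a the interaction was −0.42 (FDR 0.112), −0.57 (FDR 0.119) and −0.47 (FDR 0.297). So the call of Bhmt and Cth on CDAHFD in TSP-1 null mice and its absence in WT mice does not show that the genotypes differed. With median of ratios scaling the interaction of Chdh (0.45, FDR 0.036) and Mat2a (0.43, FDR 0.0484) passed the FDR but not the fold threshold. With quantile normalization none of the 10 genes passed either the FDR or both thresholds. The interaction shares the NDKO and NDWT libraries with the control diet comparison.

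The diet results depend on what is held equal between libraries. With median of ratios scaling the median of all tested genes lay at −0.01 in both genotypes, with 3299 higher and 2242 lower calls in WT mice and 3225 and 1980 in TSP-1 null ones, in place of 6412 and 671 and of 6088 and 581. With quantile normalization the calls were 2514 and 2562 in WT mice and 2421 and 2186 in TSP-1 null ones. Mat1a and Ahcy were called lower in both genotypes under all 3 scalings. In WT mice, median of ratios scaling called 9 of the 10 genes lower, Mat2a being the exception. Quantile normalization called 2 and left Gnmt at −0.40 (FDR 0.0159) and Dmgdh at −0.54 (FDR 8.37e-05), under the fold threshold. In TSP-1 null mice, median of ratios scaling took Bhmt2 to −0.86 and Cbs to −1.10, both then called, and Mat2a to 0.31 (FDR 0.0015), no longer called. Between genotypes on the control diet, 253 of all tested genes were called higher and 440 lower as deposited, 348 and 329 with median of ratios scaling and 246 and 236 with quantile normalization. Cth, Mat1a and Gnmt were called higher under all 3, and Ahcy was at 0.46 (FDR 0.00388) and not called with quantile normalization. On CDAHFD the calls between genotypes were 24 and 48 as deposited, 38 and 27 with median of ratios scaling and 65 and 39 with quantile normalization, with none of the 10 genes among them.

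**Figure D4:**
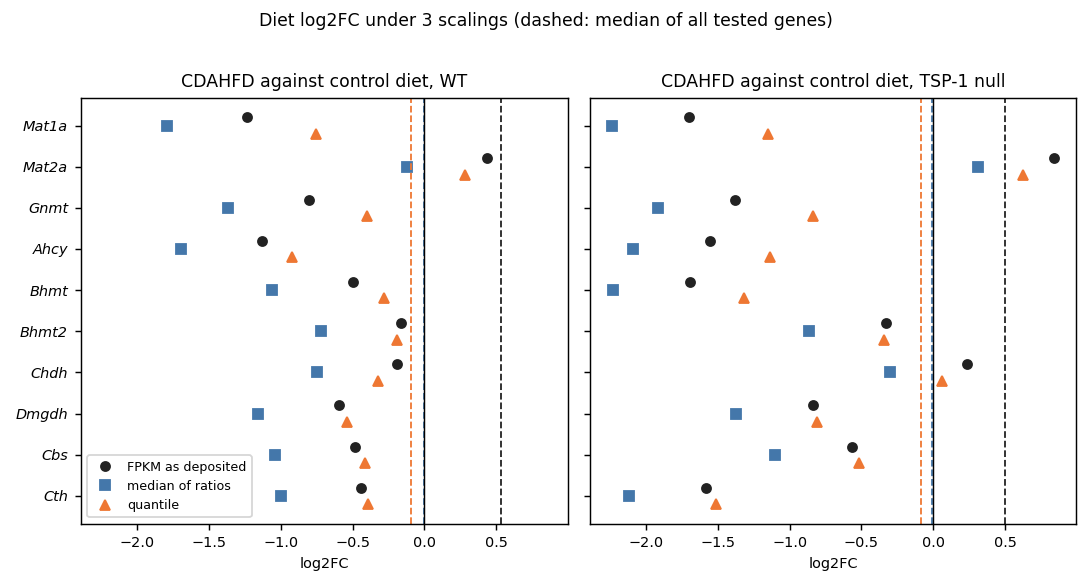
log2FC on CDAHFD (x axis) of the 10 genes in WT (left) and TSP-1 null mice (right) from FPKM as deposited, after median of ratios scaling and after quantile normalization, with dashed lines at the median of all tested genes under each scaling. Mat1a and Ahcy lie left of −0.58 under all 3 scalings, while Mat2a in WT mice (0.44 and −0.12) and Chdh in TSP-1 null mice (0.23 and −0.30) change sign between FPKM as deposited and median of ratios scaling.

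Genes next to the cycle were read from lists of 43 genes, all tested. On CDAHFD 11 were higher and 8 lower in WT mice, and 14 higher and 7 lower in TSP-1 null mice. Together 19 and 21 of the 43 were called, beside 48.8% (44.1% higher and 4.62% lower) and 45.9% (41.9% higher and 4% lower) of all tested genes. The median log2FC of the 43 was 0.23 and 0.35, under the 0.53 and 0.50 of all tested genes. With median of ratios scaling the counts were 5 higher and 14 lower in WT mice and 6 and 14 in TSP-1 null ones. Under that scaling 3299 of all 14524 tested genes were called higher and 2242 lower in WT mice. In TSP-1 null mice 3225 were higher and 1980 lower. The polyamine and methionine salvage branch, which draws on SAM and returns methionine, had 5 of 9 genes higher in WT, 6 in TSP-1 null mice and none lower, beside 44.1% and 41.9% of all tested genes called higher, with 3 and 3 higher and 1 and 0 lower after median of ratios scaling. Smox, spermine oxidase, went from 0.961 ± 0.199 FPKM in NDWT to 3.47 ± 0.307 in HFWT (log2FC 1.77, FDR 3.86e-09) and from 0.978 ± 0.213 in NDKO to 3.22 ± 0.623 in HFKO (log2FC 1.63, FDR 1.39e-08). Enoph1 of the same branch rose in WT mice (log2FC 1.43, FDR 3.22e-08) and in TSP-1 null mice (log2FC 1.05, FDR 2.15e-06, and 0.53 after median of ratios scaling, under the fold threshold). Mtap rose in TSP-1 null mice (log2FC 0.99, FDR 5.95e-09, and 0.47 after median of ratios scaling, under the fold threshold) and was at 0.49 in WT mice (FDR 3.79e-05), not called.

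Of 7 genes of choline and betaine handling beside the 10 genes, 2 were higher and 3 lower in WT mice (44.1% and 4.62% of all tested genes) and 2 higher and 4 lower in TSP-1 null ones (41.9% and 4%). With median of ratios scaling 1 was higher and 5 lower in both genotypes. Of all 14524 tested genes that scaling called 3299 higher and 2242 lower in WT mice, and 3225 and 1980 in TSP-1 null ones. Slc44a2, a choline transporter-like protein, rose from 3.09 ± 0.183 FPKM in NDWT to 12.1 ± 1.58 in HFWT (log2FC 1.93, FDR 2.54e-11) and from 3.23 ± 0.391 in NDKO to 11 ± 2.01 in HFKO (log2FC 1.73, FDR 1.53e-10). Etfdh, which accepts the electrons that Dmgdh and Sardh release through the electron transfer flavoprotein, fell from 77.7 ± 3.46 to 42.9 ± 5.51 FPKM in WT mice (log2FC −0.87, FDR 1.21e-08) and, with TSP-1 null labels, from 69.3 ± 5.75 to 46.0 ± 2.91 FPKM (log2FC −0.59, FDR 2.20e-06). Sardh, which acts after Dmgdh, fell from 228 ± 19.1 to 150 ± 10.8 FPKM in WT mice (log2FC −0.60, FDR 3.24e-07, and −0.53 after quantile normalization, under the fold threshold) and, with TSP-1 null labels, from 284 ± 21.4 to 172 ± 10.4 FPKM (log2FC −0.72, FDR 3.36e-08). Of the 11 genes of cysteine, taurine, glutathione and sulfide, 2 were higher and 3 lower in WT mice (44.1% and 4.62% of all tested genes), and 3 higher and 1 lower in TSP-1 null mice (41.9% and 4%). With median of ratios scaling 1 was higher and 5 lower in WT mice and 1 higher and 4 lower in TSP-1 null ones. So the balance of this list turned in the latter, where 3225 of all tested genes were higher and 1980 lower under that scaling. Glutathione synthetase, Gss, rose from 9.19 ± 0.805 to 23.8 ± 1.07 FPKM in WT (log2FC 1.37, FDR 8.62e-11) and, with TSP-1 null labels, from 9.51 ± 1.46 to 23.8 ± 1.68 FPKM (log2FC 1.32, FDR 1.80e-10). Suox, sulfite oxidase, fell from 52.8 ± 2.91 to 30.2 ± 2.37 FPKM in WT (log2FC −0.81, FDR 3.09e-08) and, with TSP-1 null labels, from 57.9 ± 6.06 to 30.4 ± 2.80 FPKM (log2FC −0.93, FDR 5.87e-09).

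Of the folate-dependent route, 1 of 3 genes was called on CDAHFD in each genotype, higher, as were 44.1% and 41.9% of all tested genes. This was Mtr, methionine synthase, at 1.80 ± 0.153 and 3.09 ± 0.294 FPKM in NDWT and HFWT (log2FC 0.75, FDR 6.41e-05) and at 1.33 ± 0.326 and 3.00 ± 0.648 FPKM in NDKO and HFKO (log2FC 1.12, FDR 5.65e-07). In WT mice the call was lost under both other scalings (0.21 with median of ratios, −0.07 with quantile normalization). In TSP-1 null mice it remained with median of ratios scaling (0.61, FDR 3.17e-04) and was lost with quantile normalization (0.35). Under both other scalings 1 of the 3 genes was called lower in each genotype. Of all 14524 tested genes 2242 and 1980 were lower in WT and TSP-1 null mice with median of ratios scaling. With quantile normalization 2562 and 2186 were. Mat2b, the regulatory partner of Mat2a, had a log2FC of 0.44 in WT mice and 0.41 in TSP-1 null ones, under the fold threshold, and −0.12 in both after median of ratios scaling. Pemt, which makes phosphatidylcholine with SAM, had 0.35 and 0.35, and −0.21 and −0.19 after median of ratios scaling. Of the 10 genes around SAM synthesis and SAM-dependent methyltransferases, 1 was higher and 2 lower in WT mice (44.1% and 4.62% of all tested genes). In TSP-1 null mice 2 were higher and 2 lower (41.9% and 4%). None of the 10 was higher in either genotype with the other scalings. The 3 genes for S-adenosylhomocysteine hydrolase-like proteins and adenosine removal were called in neither genotype from FPKM as deposited. Chosen after their values were seen, Adk was called lower in TSP-1 null mice with median of ratios scaling (−0.63) and Ahcyl2 in WT mice with quantile normalization (−0.67).

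**Figure D5:**
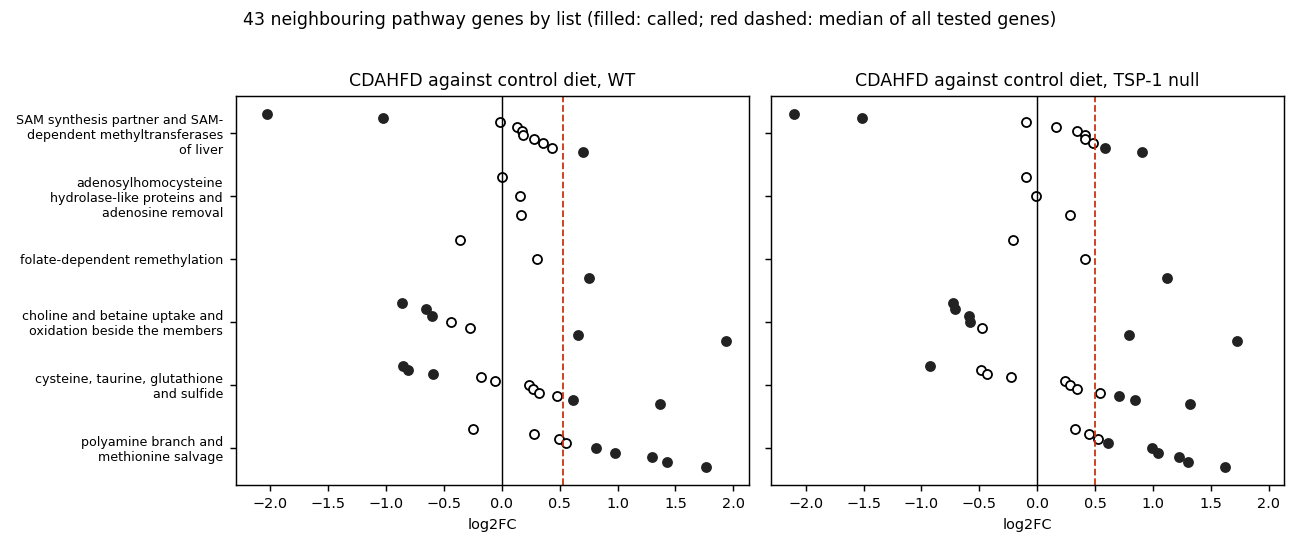
log2FC on CDAHFD (x axis) of 43 neighbouring pathway genes in 6 lists (y axis), in WT (left) and TSP-1 null mice (right), with called genes filled and a dashed line at the median of all tested genes. In the polyamine and salvage list 5 and 6 of 9 genes were called higher and none lower. Of all tested genes 44.1% and 41.9% were called higher and 4.62% and 4% lower.

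Between genotypes on the control diet 3 of the 43 were called, 1 higher and 2 lower, beside 4.77% of all tested genes (1.74% higher and 3.03% lower). With median of ratios scaling 2 were higher and 1 lower, beside 348 higher and 329 lower of all 14524 tested genes. Nnmt, which spends SAM on nicotinamide, was higher in libraries labelled TSP-1 null, at 128 ± 28.4 against 44.0 ± 23.3 FPKM (log2FC 1.68, FDR 6.59e-04). Gclc, the catalytic subunit of the first step of glutathione synthesis, was lower at 63.0 ± 18.8 against 106 ± 10.7 FPKM (log2FC −0.79, FDR 0.00199). On CDAHFD 0 of the 43 were called by limma (0.496% of all tested genes). In that fit 6 had an unadjusted p under 0.05, a count not set beside the share of all tested genes. Of the 43, the interaction called only Adi1 of the methionine salvage branch (0.58, FDR 0.0231; 0.647% of all tested genes were called), at 65.6 ± 5.86, 47.1 ± 3.98, 55.0 ± 3.01 and 59.4 ± 6.90 FPKM in NDWT, NDKO, HFWT and HFKO, and not after quantile normalization (0.54, FDR 0.0392).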

How the data were processed

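Poly(A) RNA of 20 mouse livers was sequenced on an Illumina HiSeq instrument. The authors processed the reads with QuickRNASeq, and the submitters' processing notes name STAR 2.5.2, featureCounts of Subread 1.5.1 and GRCh38. The coordinates in the table are those of GRCm38, on which 99.8% of 37607 identifiers found in GENCODE M21 overlapped their gene. The series text names the right medial lobe and the methods of the study the right lateral lobe. The deposited values are FPKM, which the authors did not scale further between libraries. They add up, after multiplication by gene length in kb, to 999999.71 to 1000000.25 per library, so a gene's value is a share of its library. Fragments recovered from FPKM and gene length came out whole, within 0.1, for 100% of the values checked, and depth was 15641545 to 23276322 fragments with a median of 18950482.5. The libraries carry no molecular identifiers. 0 columns of sample values were left unused. Within groups, no library was a copy of another (lowest chi-square per degree of freedom 12.1 over 40 pairs).

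limma 3.58.1 in R 4.3.3 was run on log2(FPKM + 0.1) for genes above 0.5 FPKM in at least 5 libraries, with a mean per group, all 20 libraries and eBayes with trend. Calls needed an FDR (Benjamini-Hochberg, two-sided) under 0.05 and a log2FC beyond 0.58 in either direction. A log2FC on this scale understates the change of low genes. Ratios were tested with two-sided exact permutation tests. The script was tested on simulated data. Alternatives were pseudocounts of 0.01 and 1, other filters, quantile normalization or median of ratios scaling, calls by FDR alone, only the groups compared, other eBayes settings, leaving out each mouse and a replicate block. The 10 genes, the gene lists and the tests were chosen with earlier results of these data known. Named were all 10 genes, Thbs1, at most the 6 called neighbouring genes with the lowest FDR per comparison, and Mtr, Mat2b and Pemt. Of the genes this rule selects, 1 is not reported here. Sqor and Adgre1 were found as Sqrdl and Emr1, and Tf was not matched. Promoter windows are from RefSeq. Python 3.11.15, pandas 2.3.3, numpy 2.4.6, scipy 1.17.1 and matplotlib 3.10.9 were used.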

Additional observations from a re-analysis of the deposited data

Results flagged for a closer look

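Each of the 10 genes was examined in each group of 5 mice for a mouse far from the other 4, 40 groups in all, and chance marks about 1 in 20 such groups. 1 value stood apart: Mat2a in NDWT mouse 2, at 33.956 FPKM, where the nearest other mouse was at 37.661 FPKM and the gap made up 0.796 of the range of the group.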

How the results depend on the processing

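FPKM are shares, so the count of cycle genes called in WT mice on CDAHFD moved from 4 to 9 with median of ratios scaling and to 2 with quantile normalization, and to 7 without the fold threshold. Directions turned for Mat2a in WT mice (−0.12) and Chdh in TSP-1 null mice (−0.30) on CDAHFD, both with median of ratios scaling. Without the fold threshold, 30 and 35 neighbouring genes were called on CDAHFD in WT and TSP-1 null mice and 12 between genotypes on the control diet, and of all tested genes 10406 were called on CDAHFD in TSP-1 null mice, and 1899 and 163 between genotypes on the control diet and CDAHFD. A pseudocount of 1 left 393 of 693 calls between genotypes on the control diet. Between genotypes on CDAHFD, 72 calls became 127 without a filter and 40 with only the groups compared. The 94 interaction calls became 54 without a filter, and the single neighbouring gene called there became 0 with a pseudocount of 1 and with quantile normalization. The cause was not tested where the setting itself does not fix it.

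With each mouse left out, the interaction called 36 to 184 of all tested genes, 0 to 1 of the cycle genes and 0 to 2 of the neighbouring genes. The 184 came without NDKO mouse 2. Between genotypes 38 to 84 of all genes were called on CDAHFD, and 2 to 5 neighbouring genes on the control diet. The Bhmt to Bhmt2 difference ran from −0.40 to −0.26 on CDAHFD in WT mice, and between genotypes from 0.42 to 0.55 with the control diet and from −0.70 to −0.36 with CDAHFD. The numbers in the labels did not pair the mice: 0 of 20 same-number pairs correlated above 0.1 and 4 of 20 mice correlated best with their own number. The replicate block gave 4, 7, 4, 0 and 0 called cycle genes, as without it.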
